A study of Mus musculus with 63 samples.

Results

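Glutamate transporters and the enzymes and carriers of the glutamate-glutamine cycle were followed by 9 genes, which were the rows of the count tables with the symbols Slc1a1, Slc1a2, Slc1a3, Slc17a6, Slc17a7, Slc17a8, Glul, Slc38a1 and Slc38a2 out of 55291 genes counted. RNA came from entorhino-hippocampal slice cultures of postnatal day 3 to 5 mice of either sex, kept in medium with horse serum and glutamax for at least 18 days. Cultures were either left as control or received an entorhinal cortex lesion (ECL), and lesioned DG and CA3 tissue was taken 3 days after it. The lesion cuts the perforant path input to both the dentate gyrus (DG) and CA3, which leaves both regions partly denervated. Cultures came from Synpo+/+ mice (C57BL/6J) or from Synpo-/- mice (B6.129-Synpotm1Mndl/Dllr, backcrossed to C57BL/6J). Synpo-/- mice lack the spine apparatus protein synaptopodin in every cell.

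In the regional experiment, 39 libraries were made from DG or CA3 tissue cut out of 1 culture each. There were 2 Synpo+/+ control, 3 Synpo+/+ ECL, 6 Synpo-/- control and 6 Synpo-/- ECL libraries from CA3, and 4, 7, 7 and 4 in the same order from the DG. In the coimmunoprecipitation (coIP) experiment, 24 libraries were made from lysates of 5 to 6 pooled cultures treated with cycloheximide. They were precleared input or the material held by an anti-synaptopodin antibody. The experiment had 5 Synpo+/+ control, 5 Synpo+/+ ECL and 2 Synpo-/- replicates of each fraction. The labels give no lesion state for the Synpo-/- coIP samples. Nothing in the labels ties a regional library to an animal, so p-values measure the spread between these samples only.

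Glutamate released at a synapse is loaded into vesicles by the vesicular transporters VGLUT2 (Slc17a6), VGLUT1 (Slc17a7) and VGLUT3 (Slc17a8). After release it is taken up mainly by astrocytes through GLT-1 (Slc1a2) and GLAST (Slc1a3), while EAAC1 (Slc1a1) serves neurons. Glutamine synthetase (Glul) of astrocytes turns the glutamate into glutamine, which system A carriers such as Slc38a1 and Slc38a2 move back into neurons for new transmitter. Slice cultures keep the local VGLUT-expressing cells of the hippocampus, whereas the entorhinal cell bodies lie outside DG and CA3.

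Libraries held 14055930 to 46043990 counted reads in the regional experiment and 11601154 to 53682143 in the coIP experiment. Levels below are in CPM, counts scaled to the TMM-normalized library size, unless stated in TPM, which are also scaled to exon length. Fold changes come from edgeR fits to the libraries of each comparison, and a gene was called at an adjusted p below 0.05 over all genes tested. Synpo counts were not lower in the regional and input libraries labelled Synpo-/- (mean 51.8 CPM in DG controls, against 22.5 CPM in Synpo+/+), and averaged 28.2 CPM in the Synpo-/- coIPs against 35.7 and 37.3 CPM in the Synpo+/+ control and ECL coIPs, so these counts do not check the genotype labels. The library labelled DG Synpo+/+ ECL replicate 5 went against its region label. Its level of Prox1, a granule cell factor, was 15.5 CPM, against 120 to 217 CPM in the other 21 DG libraries and 12.7 to 44.0 CPM in the 17 CA3 libraries. Fold changes, gene lists and marker lists that rest on it are given with and without it.

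Per length, the astrocytic uptake transporters stood far above the vesicular ones. Over the 39 regional libraries the level of Slc1a3 averaged 566 TPM (range 439 to 778) and that of Slc1a2 304 TPM (216 to 386), and these ranges did not overlap. Glul followed with a level of 117 TPM (78.0 to 173), below every Slc1a2 value. Slc38a2 stood at 44.0 TPM (33.2 to 52.3) and Slc38a1 at 28.9 TPM (21.4 to 35.4), ranges that touched only at their ends. Slc17a7 had a level of 23.7 TPM (10.4 to 45.2), Slc1a1 of 19.0 TPM (15.7 to 22.4) and Slc17a6 of 9.25 TPM (0.213 to 26.6), and these 3 ranges overlapped. Slc17a8 had the lowest mean, 2.91 TPM (0.933 to 7.16), and overlapped with Slc17a6. In the 12 input libraries, which hold whole cultures prepared by another protocol, Glul stood at 527 TPM and Slc1a3 at 1021 TPM. The experiments were counted and prepared separately, and no test was made between them. Of the exon bases of Slc1a1, 31.9% are shared with the antisense gene 4430402I18Rik, and counting ignored strand, so reads of this pair cannot be told apart.

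**Figure D1:**
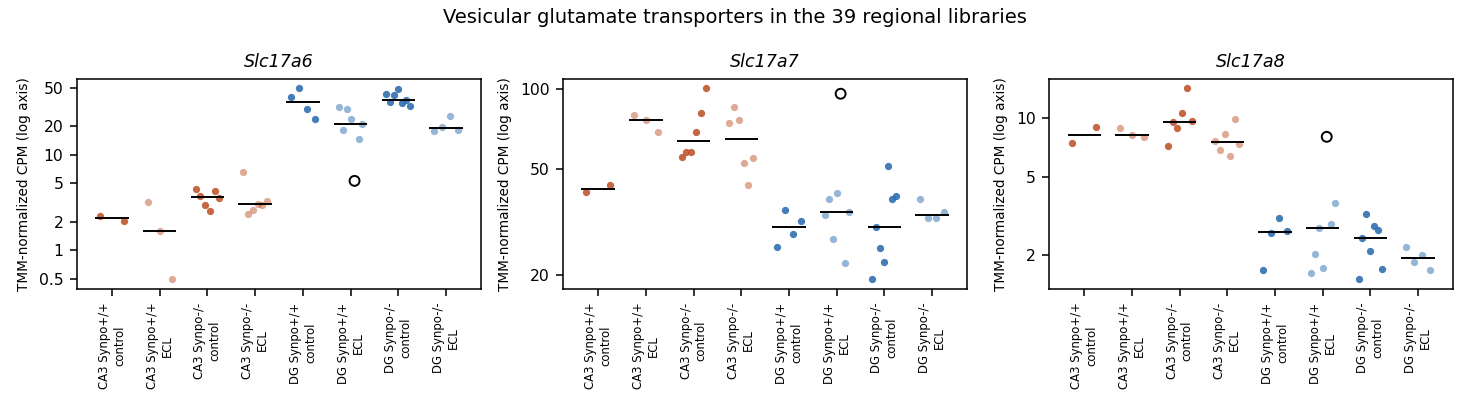
Levels of the 3 vesicular glutamate transporters in the 8 regional groups, in TMM-normalized CPM on a log axis, with 1 point per library, a black line at each group median, darker points for control and lighter points for ECL. Slc17a6 lay between 14.6 and 49.1 CPM in 21 DG libraries and between 0.500 and 6.56 CPM in CA3, while the open circle, the library labelled DG Synpo+/+ ECL replicate 5, lay at 5.32 CPM.

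The vesicular transporters divided the regions. The level of Slc17a6 in Synpo+/+ controls was 2.30 and 2.04 CPM in CA3. In the DG it was 40.2, 49.1, 30.2 and 23.3 CPM, with every DG library above both CA3 libraries. The DG minus CA3 difference was 4.05 on the log2 scale (SE 0.32, 16.6-fold, adjusted p = 6.8e-06). Slc17a8 had the opposite order, with levels of 7.50 and 9.05 CPM in CA3 against 1.69, 2.59, 3.12 and 2.68 CPM in the DG, a log2 difference of -1.71 (SE 0.263, adjusted p = 0.00132). Slc17a7 levels were 40.9 and 43.4 CPM in CA3 and 25.4 to 35.0 CPM in the DG, again without overlap, but its difference of -0.47 did not pass (adjusted p = 0.107). In this comparison 2 of the 9 genes were called and 5.39% of all genes tested, and without DG control replicate 2 Slc17a7 was called as well. Fewer cells of a type and less RNA per cell cannot be told apart in such tissue samples.

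The 250 bases before the RefSeq start of the 3 vesicular transporters, and of the uptake transporter Slc1a3, which was called in some of the comparisons below, are shown because these genes differed between regions or after the lesion. They were read from the GRCm38.p6 build, 5' to 3' on the coding strand, with each match to the E-box letters CANNTG in capitals. These letters are the same on both strands.
Slc1a3: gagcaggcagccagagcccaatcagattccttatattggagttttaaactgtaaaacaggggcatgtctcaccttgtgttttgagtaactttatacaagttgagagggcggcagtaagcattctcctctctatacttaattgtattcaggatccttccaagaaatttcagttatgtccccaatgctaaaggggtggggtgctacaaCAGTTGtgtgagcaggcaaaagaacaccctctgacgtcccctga
Slc17a6: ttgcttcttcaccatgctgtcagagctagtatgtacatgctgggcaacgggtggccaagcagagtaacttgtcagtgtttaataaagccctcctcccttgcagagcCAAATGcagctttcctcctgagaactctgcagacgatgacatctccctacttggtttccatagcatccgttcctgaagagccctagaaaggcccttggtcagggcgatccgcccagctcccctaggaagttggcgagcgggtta
Slc17a7: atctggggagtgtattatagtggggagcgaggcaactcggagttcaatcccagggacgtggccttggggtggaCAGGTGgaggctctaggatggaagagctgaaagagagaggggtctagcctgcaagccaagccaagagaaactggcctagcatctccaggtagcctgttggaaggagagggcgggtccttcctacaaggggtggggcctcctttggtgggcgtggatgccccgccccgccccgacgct
Slc17a8: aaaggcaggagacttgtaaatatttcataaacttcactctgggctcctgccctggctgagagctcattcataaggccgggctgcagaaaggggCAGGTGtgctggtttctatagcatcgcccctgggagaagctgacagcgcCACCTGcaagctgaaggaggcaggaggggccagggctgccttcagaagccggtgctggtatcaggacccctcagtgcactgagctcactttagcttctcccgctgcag
Slc17a6 (chr7:51622006-51671119, plus strand) and Slc17a7 (chr7:45163949-45176142, plus strand) lie on the same chromosome, Slc17a8 at chr10:89574020-89621253 on the minus strand, and Slc1a3 at chr15:8634124-8710764 on the minus strand. Slc17a8 held 2 matches and the others 1 each. Of 32851 RefSeq promoter windows of the same length, 66.2% held at least 1 match, with a median of 1. For Slc17a6 and Slc17a8, which have 2 starts in RefSeq, the start nearest to the annotated gene was used. Of the 9 genes, 8 had a promoter entry, all but Slc38a1.

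In Synpo-/- controls all 3 vesicular transporters were called between the regions. The level of Slc17a6 ran from 2.58 to 4.41 CPM (median 3.64) in 6 CA3 libraries and from 32.3 to 48.4 CPM (median 37.3) in 7 DG libraries, a log2 difference of 3.55 (SE 0.139, adjusted p = 4.09e-12). Slc17a8 ran from 7.25 to 14.2 CPM (median 9.62) in CA3 and from 1.51 to 3.25 CPM (median 2.46) in the DG, a log2 difference of -1.99 (SE 0.182, adjusted p = 1.5e-07). Slc17a7 ran from 55.4 to 100.7 CPM (median 63.7) in CA3 and from 19.2 to 51.3 CPM (median 30.1) in the DG, a log2 difference of -1.03 (SE 0.186, adjusted p = 0.000367). None of these ranges overlapped. Slc1a2 was also lower in the DG, with levels of 1192 to 1371 CPM (median 1334) against 1668 to 1851 CPM (median 1726) in CA3 and a log2 difference of -0.32 (SE 0.0639, adjusted p = 0.000908). These 4 genes, of 9, stand beside 25.5% of all genes tested. Each of the 4 was called whichever of the 13 libraries was left out.

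After the lesion, Synpo-/- tissue showed the same order of the vesicular transporters. Slc17a6 had levels of 2.40 to 6.56 CPM (median 3.02) in 6 CA3 libraries and of 17.5, 19.6, 25.4 and 18.1 CPM in the DG, a log2 difference of 2.55 (SE 0.228, adjusted p = 4.95e-06). Slc17a8 had levels of 6.43 to 9.90 CPM in CA3 and 2.22, 1.85, 2.02 and 1.68 CPM in the DG (log2 difference -1.99, adjusted p = 3.82e-06). Slc17a7 had levels of 43.5 to 85.9 CPM in CA3 and 38.4, 32.8, 32.8 and 34.5 CPM in the DG (log2 difference -0.89, adjusted p = 0.002). Here the uptake transporter Slc1a3 was also called. Its levels of 2244, 2191, 2186 and 2072 CPM in the DG lay above the 1558 to 1836 CPM of CA3, with a log2 difference of 0.36 (SE 0.0988, adjusted p = 0.0223). Of all genes tested, 13.6% were called in this comparison, beside 4 of the 9. The Slc1a3 call was kept in 4 of 10 fits that left out 1 library and was lost without CA3 replicate 3, 4 or 5 or without DG replicate 1, 2 or 3 (log2 differences 0.33 to 0.36).

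In lesioned Synpo+/+ tissue the region comparison turned on the library labelled DG replicate 5. With it, only Slc17a6 was called among the 9 (log2 difference 3.67, SE 0.586, adjusted p = 0.0256), beside 2.05% of all genes, and that call was lost when any of the other 9 libraries was left out (adjusted p up to 0.166, log2 differences from 3.18). Without replicate 5, 19.8% of all genes were called, and 4 of the 9. Slc17a6 then differed by 3.83 (adjusted p = 2.62e-06), Slc17a8 by -1.72 (adjusted p = 4.95e-05), Slc17a7 by -1.15 (adjusted p = 2.31e-05) and Slc1a3 by 0.35 (adjusted p = 0.011) on the log2 scale. Slc17a6 levels in these groups were 3.17, 1.59 and 0.500 CPM in CA3 and 14.6 to 31.2 CPM (median 22.1) in the 6 remaining DG libraries, and they did not overlap. Replicate 5 held 96.2 CPM of Slc17a7 and 8.06 CPM of Slc17a8, within the ranges of the 17 CA3 libraries (40.9 to 100.7 CPM and 6.43 to 14.2 CPM).

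**Figure D2:**
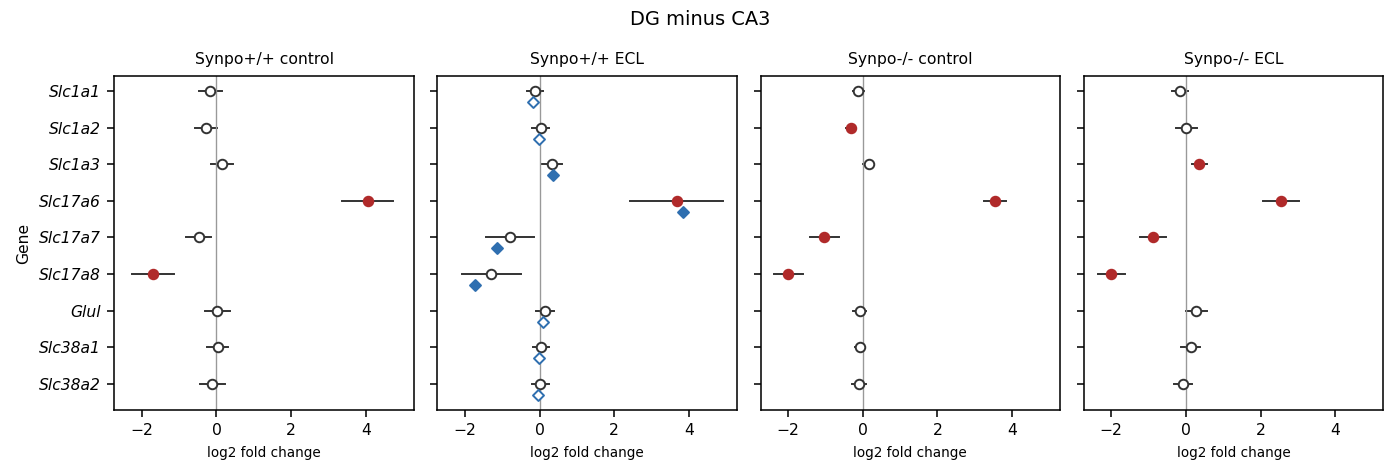
Log2 difference of DG minus CA3 for the 9 genes in the 4 regional comparisons, with 95% intervals, filled red circles where the gene was called and blue diamonds for the fit without the library labelled DG Synpo+/+ ECL replicate 5. Slc17a6 lay between 2.55 and 4.05 in all panels, and Slc17a8 between -1.99 and -1.29.

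Markers of several cell types moved with the regions. Counts follow in the order Synpo+/+ control, Synpo+/+ ECL, Synpo-/- control and Synpo-/- ECL. In that order 2.63%, 1.54%, 13.1% and 7.37% of all genes were called higher in the DG and 2.75%, 0.508%, 12.5% and 6.24% lower. All 5 dentate granule cell markers were called higher in the DG in each of the 4 comparisons. So were 2, 2, 3 and 2 of the 3 markers of Cajal-Retzius cells, a glutamatergic cell type (median log2 difference 1.85 to 2.03), 1, 1, 2 and 2 of 3 hilar mossy cell markers and 3, 0, 5 and 3 of 7 interneuron markers. Called lower in the DG were 3, 0, 5 and 5 of the 7 CA3 pyramidal cell markers and 5, 0, 8 and 1 of 8 oligodendrocyte markers. So were 3, 0, 3 and 3 of 7 general neuron markers, and none of these was higher. Their summed level in Synpo-/- controls was 3692 to 5585 CPM in the DG and 7407 to 9241 CPM in CA3. The summed Cajal-Retzius level in controls was 72.2 to 88.95 CPM in the DG and 17.4 and 21.1 CPM in CA3 of Synpo+/+, and 75.1 to 103 CPM and 19.1 to 44.8 CPM in Synpo-/- tissue. Of all genes tested 19.8% were called between lesioned Synpo+/+ regions without replicate 5. The Synpo+/+ ECL counts then became 5 granule cell, 3 Cajal-Retzius, 1 mossy cell and 4 interneuron markers higher. Lower were then 5 CA3, 7 oligodendrocyte and 4 general neuron markers. Of 10 astrocyte markers 5 were higher without replicate 5, against 1 with it. In Synpo-/- ECL tissue, where Slc1a3 was higher in the DG, 6 of 10 astrocyte markers were higher as well, and their summed level was 4803 to 6424 CPM in the DG and 2428 to 4401 CPM in CA3. In Synpo-/- controls 4 of the 10 were lower in the DG, where Slc1a2 was lower. No marker was at 0 throughout a group. The part of cell composition in these differences was not tested. The remaining genes Slc1a1, Glul, Slc38a1 and Slc38a2 were not called in these region fits, with log2 differences between -0.16 and 0.28, and -0.19 for Slc1a1 in lesioned Synpo+/+ tissue without replicate 5. Slc1a1 was called lower in Synpo-/- DG controls only with all 8 regional groups in 1 fit (-0.22, adjusted p = 0.049).

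Of 28 other genes of glutamate and glutamine handling, 27 were tested between regions. Of all genes tested 13.1% were called higher in the DG and 12.5% lower in Synpo-/- controls, and 7.37% and 6.24% in Synpo-/- ECL tissue. In Synpo+/+ tissue these shares were 2.63% and 2.75% in controls and 1.54% and 0.508% after ECL. In Synpo-/- controls 5 of the 27 were called higher in the DG and 8 lower. The cystine-glutamate exchanger gene Slc7a11 was higher by 1.08 and Gad1, a GABA-synthesizing enzyme, by 0.63, while the mitochondrial glutamate carrier gene Slc25a22 was lower (-0.88) and so was Asns, asparagine synthetase (-0.64, all log2). In Synpo-/- ECL tissue 4 were higher and 4 lower, with Slc7a11 at 1.51 and the glial mitochondrial carrier gene Slc25a18 at 0.87. Synpo+/+ controls had 2 higher (Slc7a11 at 1.01 and Gad1 at 0.54) and 1 lower (Slc25a22 at -0.60), and Synpo+/+ ECL tissue had 1 higher (Slc7a11 at 1.55). Without replicate 5 the latter had 3 higher and 8 lower, with Slc7a11 at 1.67, and 19.8% of all genes were called. Slc7a11 was thus called in all 4.

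**Figure D3:**
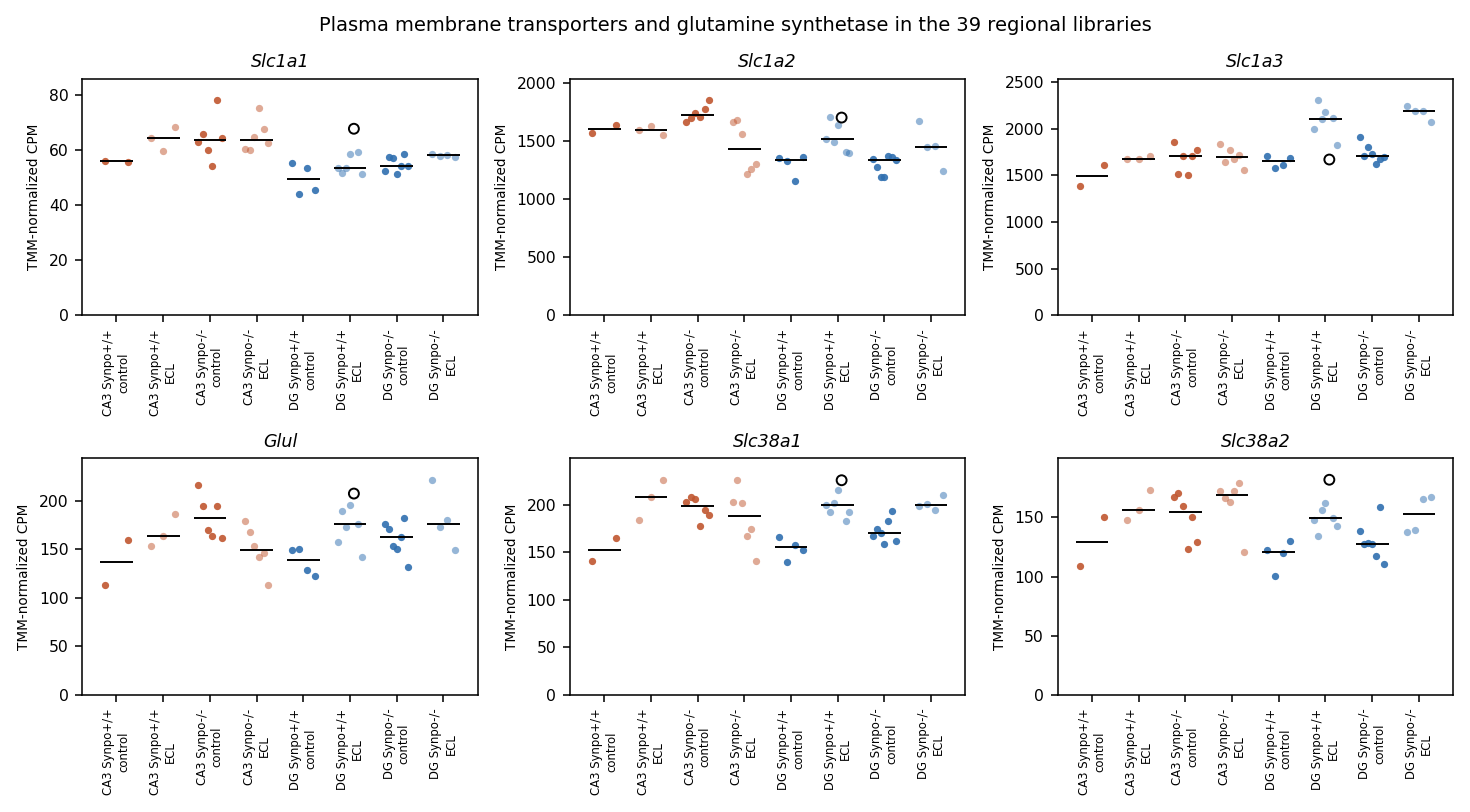
Levels of the uptake transporters, glutamine synthetase and the glutamine carriers in the 8 regional groups, in TMM-normalized CPM on linear axes from 0, drawn as for the vesicular transporters. Slc1a3 in lesioned Synpo-/- DG (2072 to 2244 CPM) lay above its controls (1625 to 1906 CPM), while Slc1a1 stayed between 44.1 and 78.0 CPM in every library.

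Slc17a6 fell in the DG after the lesion. In Synpo-/- DG its level fell from 32.3 to 48.4 CPM (median 37.3) in 7 controls to 17.5, 19.6, 25.4 and 18.1 CPM after ECL, with every lesioned library below every control. The change was -0.99 on the log2 scale (SE 0.137, 0.503-fold, adjusted p = 0.00032), and it was called whichever of the 11 libraries was left out (-1.10 to -0.93). In Synpo+/+ DG the levels were 40.2, 49.1, 30.2 and 23.3 CPM in controls and 14.6 to 31.2 CPM (median 22.1) in 6 ECL libraries, which overlapped. That change was -0.82 (SE 0.333, adjusted p = 0.104) with the library labelled replicate 5 and -0.68 (SE 0.209, adjusted p = 0.0404) without it. The difference between the genotypes' changes was -0.20 (95% interval -1.01 to 0.61, adjusted p = 0.823), and -0.37 without replicate 5.

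The same gene fell in the input of whole cultures. Synpo+/+ control inputs held 20.5, 17.4, 16.6, 15.3 and 19.8 CPM of Slc17a6 and ECL inputs 12.96, 13.3, 11.6, 11.2 and 9.34 CPM. Every lesioned input lay below every control input. The change was -0.63 (SE 0.117, adjusted p = 0.00865), was the only call among the 9, beside 5.61% of all genes tested, and was kept in all 10 fits that left out 1 library. In the same inputs 1 of 2 Cajal-Retzius markers tested, 1 of 7 general neuron, 1 of 7 interneuron and 1 of 5 granule cell markers were called lower, and 3 of 10 microglia and 1 of 10 astrocyte markers higher. The summed Cajal-Retzius level was 33.1 to 45.7 CPM in control and 20.3 to 38.4 CPM in ECL inputs, and the part of cell content in the fall of Slc17a6 was not tested. In the coIP fraction the Slc17a6 levels were 14.2, 17.02, 14.7, 17.2 and 19.5 CPM in controls and 15.8, 10.1, 11.8, 10.95 and 9.64 CPM after ECL. That change of -0.49 (SE 0.155) did not pass (adjusted p = 0.226). With edgeR 0 of the 9 genes, beside 0.314% of all genes, were called between lesioned and control coIP, and DESeq2 called 0 of the 9. An unadjusted p below 0.05 in edgeR was reached by 1 of the 9 and by 2252 of 18449 genes tested.

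In CA3 the level of Slc17a6 was low and its change was not called in either genotype (log2 changes -0.44, 95% interval -1.79 to 0.92, in Synpo+/+ and -0.03, -0.51 to 0.46, in Synpo-/-). The difference of the DG and CA3 changes in Synpo-/- tissue was -0.97 (SE 0.262, adjusted p = 0.0631). DESeq2 called it (adjusted p = 0.0128), beside 661 of 25435 genes. With edgeR 0 of the 9 genes were called in that test and 1.12% of all genes. At an unadjusted p below 0.05 were 3 of the 9, beside 2787 of 25435 genes tested. The Slc17a6 difference was called without CA3 control replicate 1, CA3 ECL replicate 2 or 3, or DG ECL replicate 3. The region and lesion comparisons of a genotype share libraries and are not independent of each other. In Synpo+/+ tissue the same test called 0 of the 9 with edgeR, beside 0% of all genes, with 0 at an unadjusted p below 0.05 and 0 with DESeq2. Without replicate 5 it called 0 of the 9 and 0.0109% of all genes, with 1 at an unadjusted p below 0.05 (Slc17a7, -0.68). For that fit the number of all genes at an unadjusted p below 0.05 was not taken.

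No marker of hilar mossy cells, which express VGLUT genes, was called lower in the lesioned DG with edgeR. Their summed level was 62.3 to 255 CPM in Synpo-/- DG controls and 66.7 to 406 CPM after ECL, and 1 of the 3 was called higher. In Synpo+/+ DG it was 58.7 to 214 CPM in controls and 144 to 340 CPM in the 6 ECL libraries without replicate 5 (19.4 CPM). None of the 7 general neuron markers was called in either DG lesion comparison with edgeR, with or without replicate 5. The part of cell content in these falls was not tested either.

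By small folds, the uptake transporter Slc1a3 was called higher in lesioned Synpo-/- DG, and the glutamine carriers in lesioned Synpo+/+ DG. The Synpo-/- change minus the Synpo+/+ change was not called for Slc1a3 (-0.03, adjusted p = 0.934), Slc38a1 (-0.22, adjusted p = 0.484) or Slc38a2 (-0.20, adjusted p = 0.569). Without replicate 5 these differences were -0.07, -0.20 and -0.16. In Synpo-/- DG, Slc1a3 had levels of 1625 to 1906 CPM (median 1708) in controls and 2244, 2191, 2186 and 2072 CPM after ECL, without overlap, a log2 change of 0.28 (SE 0.0824, 1.21-fold, adjusted p = 0.0437). With Slc17a6, 2 of the 9 genes were called there, beside 8.53% of all genes. The Slc1a3 call was lost without any 1 of the 10 libraries other than control replicate 1, with adjusted p up to 0.0981 and log2 changes of 0.26 to 0.32, and with other size factors (0.26, adjusted p = 0.0774). In Synpo+/+ DG, Slc1a3 levels were 1706, 1581, 1614 and 1684 CPM in controls and 1824 to 2302 CPM (median 2109) in 6 ECL libraries, and again did not overlap. Its log2 change was 0.27 (adjusted p = 0.122) with replicate 5, which held 1669 CPM, and 0.30 (SE 0.0927, adjusted p = 0.0395) without it.

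In Synpo+/+ DG the 2 called genes were the glutamine carriers. Slc38a1 levels were 165.5, 139, 158 and 152 CPM in controls and 183 to 225.5 CPM (median 199.7) after ECL, a log2 change of 0.36 (SE 0.0967, adjusted p = 0.0277). Slc38a2 levels were 122, 100.3, 119.5 and 130.3 CPM in controls and 134 to 182 CPM (median 149) after ECL, a log2 change of 0.35 (SE 0.109, adjusted p = 0.0476). Neither gene's groups overlapped, and 12.2% of all genes tested were called in this comparison. Glul had levels of 123 to 150.1 CPM in controls and 141 to 207 CPM after ECL, which overlapped, and its log2 difference of 0.34 did not pass (adjusted p = 0.0573, and 0.28 with adjusted p = 0.0738 without replicate 5). Replicate 5 held the highest level of each of these genes. The other 6 ECL libraries held 183 to 215.7 CPM of Slc38a1, 134 to 162.2 CPM of Slc38a2 and 141 to 195.4 CPM of Glul. Without replicate 5 the changes of Slc38a1 and Slc38a2 were 0.32 (adjusted p = 0.0211) and 0.29 (adjusted p = 0.0436). In that fit 4 of the 9 genes were called, beside 13.8% of all genes. In Synpo-/- DG the changes of Slc38a1 (0.18, adjusted p = 0.207) and Slc38a2 (0.19, adjusted p = 0.337) did not pass. In Synpo+/+ DG the Slc38a1 call was lost without control replicate 2, 3 or 4 or ECL replicate 4 (adjusted p up to 0.0891). The Slc38a2 call was kept only without ECL replicate 2 or 5 and had adjusted p up to 0.14 otherwise.

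**Figure D4:**
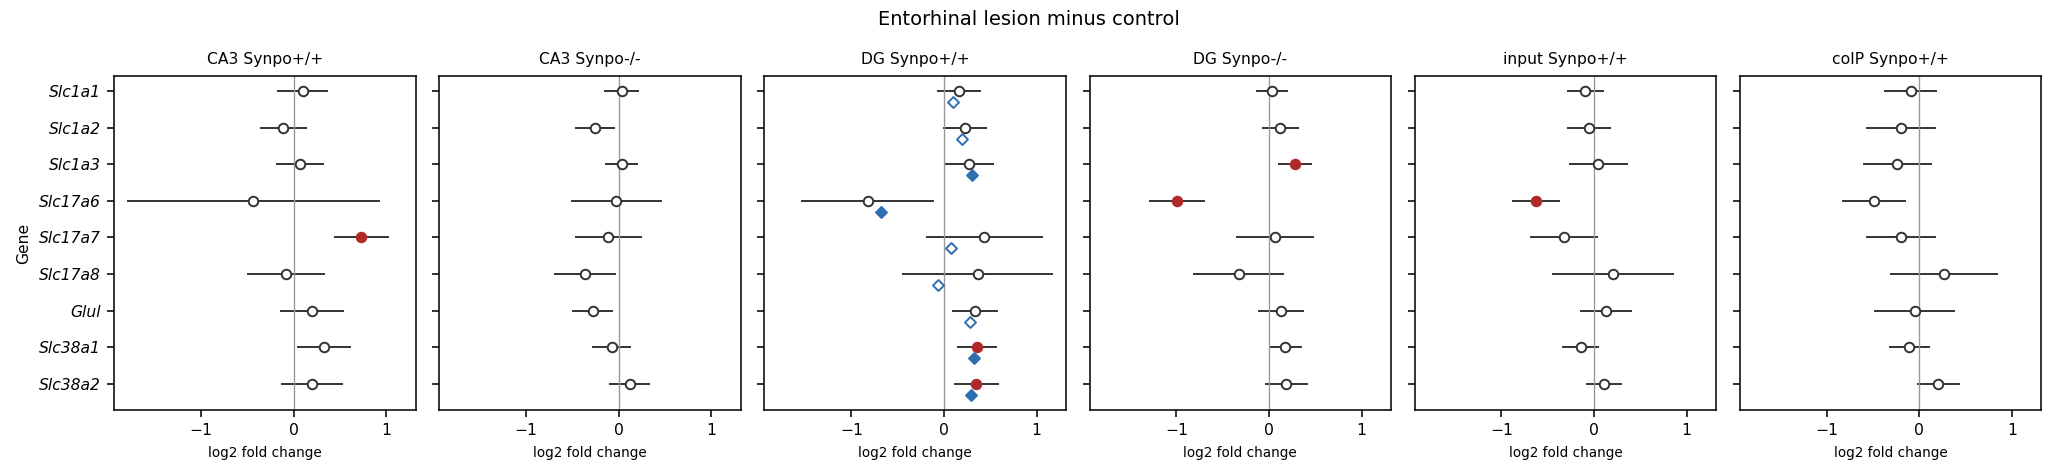
Log2 change after the lesion (ECL minus control) of the 9 genes in 6 comparisons, with 95% intervals, filled red circles where the gene was called and blue diamonds for the fit without the library labelled DG Synpo+/+ ECL replicate 5. Slc17a6 lay at -0.99 in Synpo-/- DG and -0.63 in Synpo+/+ input, and Slc17a7 at 0.73 in Synpo+/+ CA3.

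Glial markers rose in the same DG libraries. Of 10 astrocyte markers 7 were called higher in each genotype, and their summed level was 2208 to 2821 CPM in Synpo+/+ DG controls and 4473 to 6008 CPM after ECL, and 2520 to 3133 CPM and 4803 to 6424 CPM in Synpo-/- DG. Of 10 microglia markers, 10 were higher in Synpo+/+ and 8 in Synpo-/- DG. Without replicate 5, 8 astrocyte and 10 microglia markers were higher in Synpo+/+ DG, and 2 of 5 granule cell markers as well. The part of glial content in the changes of Slc1a3, Slc38a1 and Slc38a2 was not tested. Of the 27 other glutamate and glutamine genes tested, 3 were higher and 0 lower in lesioned Synpo+/+ DG, and 4 higher and 2 lower in lesioned Synpo-/- DG. Over all genes 7.86% were called higher and 4.31% lower in Synpo+/+ DG, and 5.17% and 3.36% in Synpo-/- DG. Without replicate 5 the count for the 27 in Synpo+/+ DG was again 3 and 0, with Slc25a18 at 1.18, Glud1 at 0.47 and Oat at 0.47. In that fit 13.8% of all genes were called. Slc25a18 was higher by 1.17 and 1.09, and glutamate dehydrogenase, Glud1, by 0.44 and 0.38 in the Synpo+/+ and Synpo-/- DG. Oat, ornithine aminotransferase, was higher by 0.52 in Synpo+/+ DG, and the glial glutamine carrier gene Slc38a3 by 0.73 and the neutral amino acid transporter gene Slc1a4 by 0.42 in Synpo-/- DG (all log2). In the inputs 2 were higher, Slc25a18 (0.60) and Glud1 (0.34), beside 2.45% of all genes. In Synpo-/- tissue 3 changed more in DG than in CA3, Slc25a18 (1.24), Slc38a3 (0.94) and Glud1 (0.48), beside 0.877% of all genes.

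In CA3, Slc17a7 was the 1 gene of the 9 called after the lesion, in Synpo+/+ tissue. Its levels were 40.9 and 43.4 CPM in controls and 79.7, 76.3 and 69.1 CPM after ECL, a log2 change of 0.73 (SE 0.129, 1.66-fold, adjusted p = 0.0345), beside 1.78% of all genes. The call was lost without control replicate 1 or without ECL replicate 1 or 2 (log2 changes 0.65 to 0.805, adjusted p up to 0.136), and also with all 8 regional groups in 1 fit (0.83, adjusted p = 0.209) or with the length trend removed (0.60, adjusted p = 0.0604). The 7 CA3 pyramidal cell markers, of which none was called with edgeR, had a summed level of 907 and 916 CPM in these controls and 1011, 1251 and 1468 CPM after ECL (median log2 change 0.45), and 1 of 10 microglia markers was called higher. Their part in the change of Slc17a7 was not tested. In Synpo-/- CA3 the Slc17a7 levels were 55.4 to 100.7 CPM (median 63.7) in controls and 43.5 to 85.9 CPM (median 64.7) after ECL, a log2 change of -0.12 (95% interval -0.47 to 0.23). The difference between the genotypes was -0.87 (SE 0.288, adjusted p = 0.168). With edgeR 0 of the 9 genes were called in that interaction, beside 0% of all genes, and DESeq2 called 0 of the 9. At an unadjusted p below 0.05 in edgeR were 3 of the 9 (Slc17a7, Glul and Slc38a1), beside 4589 of 26821 genes tested. The same interaction in the DG called 0 of the 9, beside 0.00381% of all genes (0.00385% without replicate 5), with 0 at an unadjusted p below 0.05 and 0 with DESeq2.

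No other member passed in CA3. In Synpo-/- CA3 edgeR called 0 of the 9 and 0.0770% of all genes, and DESeq2 called 0 of the 9. An unadjusted p below 0.05 in edgeR was reached by 3 of the 9, beside 1510 of 20772 genes tested. The 3 were Slc1a2 (log2 change -0.26), Glul (-0.28) and Slc17a8 (-0.37). None of the 10 astrocyte markers and none of the 27 other glutamate and glutamine genes was called in either CA3 lesion comparison with edgeR. In Synpo-/- CA3 2 of 8 oligodendrocyte markers were called lower. Their summed level was 1790 to 2875 CPM in controls and 1198 to 1659 CPM after ECL. The part of cell content in these changes was not tested.

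Few genes were called between the genotypes. The labels do not say whether the genotypes were prepared and sequenced together, so genotype and any batch cannot be told apart. Between libraries labelled Synpo-/- and Synpo+/+, edgeR called 0 of the 9 in CA3 controls, CA3 after ECL, DG controls and DG after ECL, beside 0.00413%, 0.00891%, 0.0166% and 0.0166% of all genes (0.0375% in lesioned DG without replicate 5). The numbers of the 9 at an unadjusted p below 0.05 were 4, 1, 0 and 0. Over all genes tested they were 3959 of 24203, 1383 of 22447, 3746 of 24143 and 859 of 24100. The 4 in CA3 controls were Slc17a7, Slc17a6, Glul and Slc38a1, all with higher levels in Synpo-/-. Slc17a7 had the largest of these differences, with 55.4 to 100.7 CPM in Synpo-/- against 40.9 and 43.4 CPM in Synpo+/+ (log2 difference 0.68, SE 0.197). DESeq2 called it in CA3 controls (adjusted p = 0.0393), beside 700 of 24203 genes, and called none of the 9 in the other 3 comparisons. In those DESeq2 called 21 of 22447, 235 of 24143 and 11 of 24100 genes. For the astrocytic transporters the intervals were narrow. In DG controls the log2 difference of Slc1a2 was -0.03 (95% interval -0.20 to 0.14) and that of Slc1a3 was 0.05 (-0.13 to 0.22). None of the 27 other glutamate and glutamine genes was called between genotypes with edgeR.

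The coIP fraction held more Slc1a2, Slc17a7, Slc38a1 and Slc38a2 RNA than the input in Synpo+/+ cultures, relative to all RNA. In control cultures Slc1a2 levels were 946, 1012, 729.5, 948 and 873 CPM in the inputs and 1415, 1708, 1058, 1559 and 1455 CPM in the coIPs of replicates 1 to 5, higher in 5 of 5 pairs. The log2 difference was 0.69 (SE 0.121, adjusted p = 0.000222). Slc17a7 levels were 28.8, 46.6, 37.5, 44.8 and 59.6 CPM in the inputs and 51.8, 60.8, 74.2, 78.8 and 80.4 CPM in the coIPs, with a log2 difference of 0.69 (SE 0.171, adjusted p = 0.00326). These groups overlapped, but each coIP lay above the input of its own replicate. Slc38a1 ran from 207 to 284 CPM in input and from 297 to 391 CPM in coIP (log2 difference 0.46, adjusted p = 0.00143), and Slc38a2 from 112 to 146.5 CPM and from 145 to 188.5 CPM (0.36, adjusted p = 0.00622). Differences between fractions were frequent here, with 55.0% of all genes called, against 4 of the 9.

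The same 4 genes were called in lesioned Synpo+/+ cultures, where 58.3% of all genes were called. Slc17a7 levels were 39.1, 29.6, 31.3, 43.2 and 31.1 CPM in the inputs and 49.0, 59.7, 48.3, 85.4 and 56.97 CPM in the coIPs, without overlap between the fractions and with a log2 difference of 0.80 (SE 0.163, adjusted p = 0.000791). Slc1a2 differed by 0.53 (adjusted p = 0.0141), Slc38a1 by 0.48 (adjusted p = 0.000416) and Slc38a2 by 0.44 (adjusted p = 0.000888). All 4 calls were kept in all 10 fits that left out 1 library in both conditions. Input and coIP of 1 number came from 1 lysate. With the replicate as a block 62.5% (control) and 62.4% (ECL) of all genes were called, and further members passed. Glul was then lower in the coIP by -0.23 (adjusted p = 0.0195) in control and by -0.46 (adjusted p = 0.00989) in lesioned cultures. Slc1a3 was higher by 0.15 (adjusted p = 0.0469) in control cultures, and its difference in lesioned cultures was -0.17 (adjusted p = 0.0964).

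Libraries labelled Synpo-/- showed differences of the same kind in the precipitate. Slc17a7 levels were 47.3 and 52.4 CPM in the inputs and 72.7 and 71.3 CPM in the coIPs, a log2 difference of 0.50 (SE 0.136, adjusted p = 0.0156). Slc38a2 levels were 124.5 and 112 CPM in the inputs and 165 and 190.3 CPM in the coIPs, a log2 difference of 0.55 (SE 0.137, adjusted p = 0.00949). Both genes stood higher in every coIP than in either input, and these 2 of the 9 stand beside 31.4% of all genes. The Slc17a7 call was lost without input replicate 2 (adjusted p = 0.15) and the Slc38a2 call without input replicate 1 (adjusted p = 0.0794). Slc1a2 (0.43, adjusted p = 0.0641) and Slc38a1 (0.29, adjusted p = 0.117) did not pass. With the replicate number as a block Slc1a2 was called as well, and with the biological replicate number it was not.

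**Figure D5:**
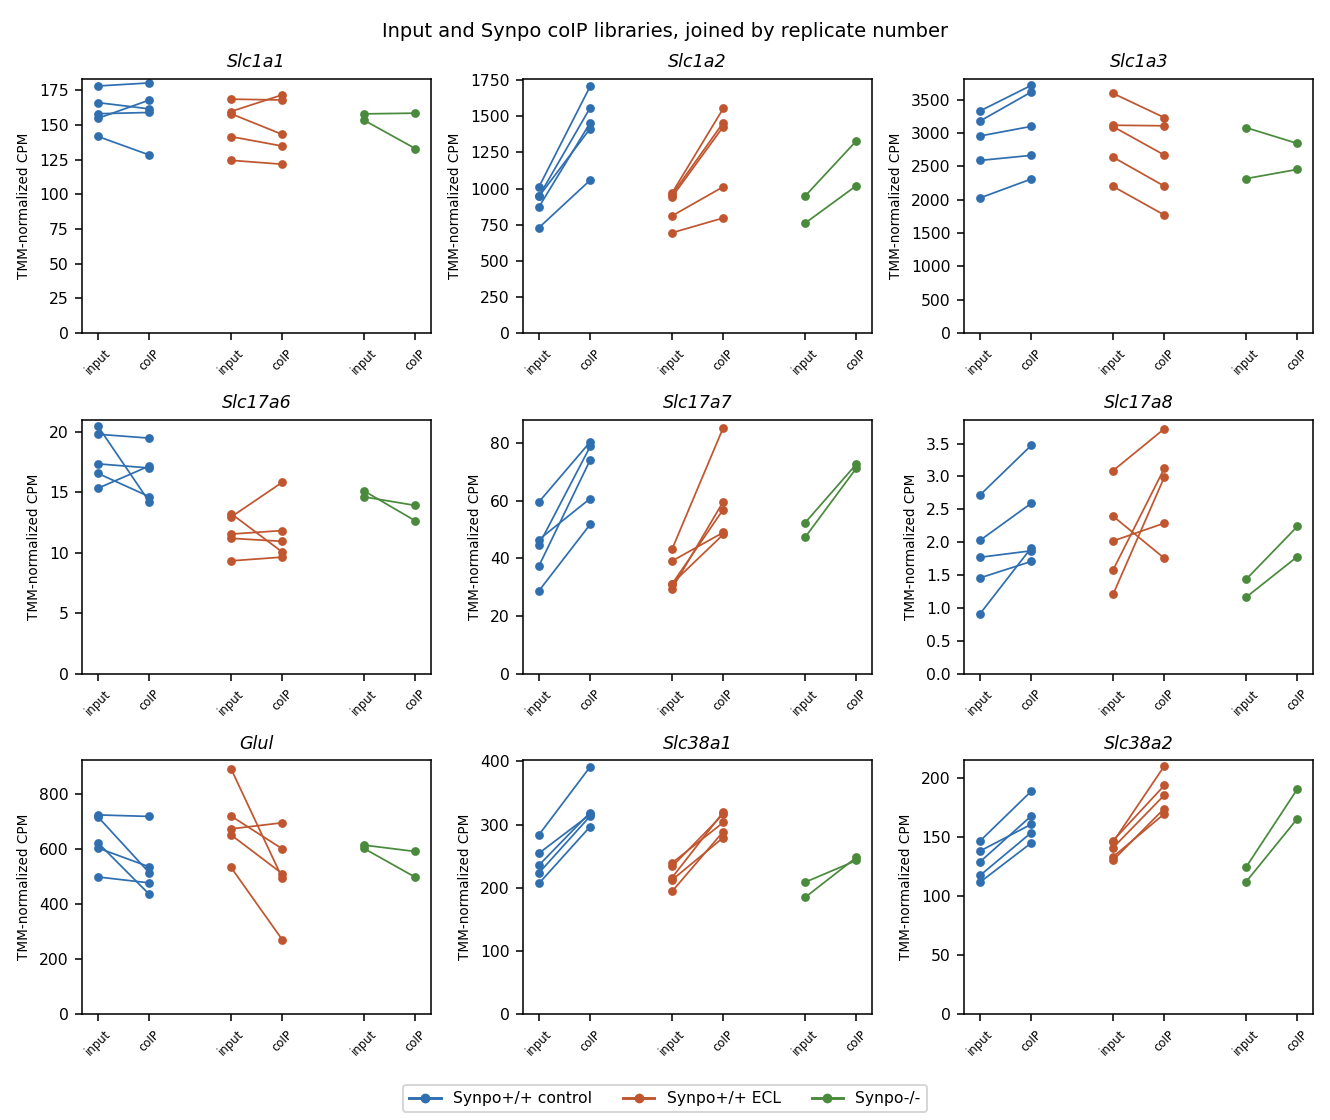
Levels of the 9 genes in input and coIP libraries in TMM-normalized CPM, with lines joining the 2 fractions of 1 replicate number, in blue for Synpo+/+ control, orange for Synpo+/+ ECL and green for Synpo-/-. Slc1a2 rose from 729.5 to 1012 CPM in input to 1058 to 1708 CPM in coIP in control cultures, and Slc17a7 in Synpo-/- from 47.3 and 52.4 CPM to 72.7 and 71.3 CPM.

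The differences between coIP and input were tested against each other. For genotype by fraction edgeR called 0 of the 9 and 0% of all genes, with 0 of the 9 at an unadjusted p below 0.05 and 0 with DESeq2. That fit did not pair the fractions. Of 20621 genes tested, 61 were called with the replicate number as a block and 50 with DESeq2. The test set 5 Synpo+/+ replicates against 2 Synpo-/- replicates, whose libraries were deeper (coIP medians of 20928329 and 49204939 counted reads). For Slc17a7 the Synpo-/- difference minus the Synpo+/+ control difference was -0.14 (95% interval -0.76 to 0.47), and for Slc1a2 it was -0.22 (-0.70 to 0.27). For lesion by fraction in Synpo+/+ cultures edgeR again called 0 of the 9 and 0% of all genes, with 0 at an unadjusted p below 0.05 and 0 with DESeq2. In that test the interval was -0.37 to 0.67 for Slc17a7 and -0.22 to 0.34 for Slc38a1.

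Gene length moved with the coIP differences. With the trend on exon length removed, Slc17a7 alone among the 4 stayed called in Synpo+/+ control (0.61, adjusted p = 0.00541), Slc38a1 turned to -0.12 and Slc1a2 and Slc38a2 did not pass, with log2 differences of 0.23 and 0.06. In lesioned cultures Slc17a7 also stayed called (0.76), Slc38a1 turned to -0.13 and Slc1a3 was called lower (-0.44, adjusted p = 0.0399). Slc1a1, which had shown no difference (0.02 in control and -0.0039 in lesioned cultures), was called lower at -0.26 and -0.28. In Synpo-/- cultures Slc17a7 was then the 1 gene called. With length and GC trends both removed the calls were others. Slc1a2 (0.37), Slc17a7 (0.34) and Slc38a2 (0.25) stayed called in Synpo+/+ control and Slc17a7 (0.44) and Slc38a2 (0.34) in Synpo+/+ ECL cultures, while in Synpo-/- cultures Slc38a2 stayed called (0.47) and Slc17a7 did not (0.34, adjusted p = 0.0571).

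Markers differed between the fractions too. Of 10 astrocyte markers 4, 3 and 3 were higher in the coIP of Synpo+/+ control, Synpo+/+ ECL and Synpo-/- cultures. With edgeR none was lower. Of all genes tested 29.6%, 30.5% and 15% were called higher there and 25.5%, 27.8% and 16.4% lower. The summed astrocyte level in control cultures was 16220 to 23140 CPM in input and 19140 to 33670 CPM in coIP. It was 21240 to 31790 CPM and 19890 to 35410 CPM in ECL cultures. In Synpo-/- cultures it was 18860 to 24410 CPM and 19460 to 22040 CPM. Of 10 microglia markers 4, 8 and 5 were lower in the coIP and none was higher. Of 7 general neuron markers 2 were higher and 2 lower in control cultures, with a summed level of 7833 to 9437 CPM in input and 4682 to 6070 CPM in coIP. Of the 26 other glutamate and glutamine genes tested, 10 were higher and 3 lower in Synpo+/+ control, 7 and 4 in Synpo+/+ ECL and 6 and 2 in Synpo-/- cultures. Pcx, pyruvate carboxylase, was higher in all 3 (1.07, 1.08 and 0.84 log2). Arl6ip5, whose product binds EAAC1, was lower in all 3 (-0.77, -0.96 and -0.50). Got2, a mitochondrial aspartate aminotransferase, was lower by -0.49 in Synpo+/+ control and -0.51 in Synpo-/- cultures.

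Over the 39 regional libraries the pattern of each gene was set beside that of 9369 other genes, as a description, by Pearson's r of log2 CPM. The libraries shared region, lesion and genotype in groups, and no p is given. Slc17a6 was nearest to Tshz2 (r = 0.982), Mef2c (0.970) and Fnbp1l (0.969). Slc17a7 was nearest to Git1 (0.964), and Slc17a8 to Fstl5 (0.956) and Slc24a2 (0.956). Slc1a3 was nearest to Gm5089 (0.903), the astrocyte gene S100a1 (0.901) and Glud1 (0.891), while the nearest genes to Slc1a2 (Nmt1, 0.818) and Glul (Ndrg2, 0.852) were less close. Among the 9 themselves Slc17a6 ran against Slc17a8 (-0.898) and Slc17a7 (-0.787), Slc17a7 ran with Slc17a8 (0.802), and Slc38a1 ran with Slc38a2 (0.764). Without replicate 5 these values were -0.898, -0.797, 0.802 and 0.748, and the nearest gene was the same for Slc17a6, Slc17a7, Slc17a8, Slc1a2 and Glul, while that of Slc1a3 was S100a1.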

How the data were processed

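Counts came from 63 mouse RNA-seq libraries. The authors trimmed reads with cutadapt 3.5, aligned them to mm10 (GRCm38) with STAR 2.7.8a and deposited unstranded featureCounts 2.0.1 counts per GENCODE M25 gene, and kept samples with over 60% uniquely mapped reads. The study's own test was DESeq2.

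The deposited counts were filtered with filterByExpr, TMM-normalized and tested per comparison with the edgeR 4.0.16 quasi-likelihood test (R 4.3.3), with Benjamini-Hochberg adjustment over all genes tested and calls at an adjusted p below 0.05. The SE is the log2 fold change over the square root of F, and intervals are 95%. TPM used exon lengths of the annotation. The scripts were tested on simulated data. All 9 members are named by rule, with, from the 28 other genes of the pathway, at most the 4 called genes of smallest p per comparison. Pc was entered under its annotation symbol Pcx. The members and lists were chosen with earlier results of these data known. DESeq2 1.42.0, RLE size factors, no filter, gene length and GC trends, mean normalized counts above 300, a joint fit of all groups, the replicate block and leaving out each library were the alternatives.

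In Synpo+/+ cultures, input and coIP of 1 number were taken to come from 1 lysate. Deviations from group means of these same-numbered libraries correlated at 0.189 to 0.44 in control and 0.103 to 0.375 in ECL samples, so the numbers pair them. In every other comparison at least 1 pair of same-numbered libraries correlated at below 0.1, so the numbers were not taken to pair samples. Single pairs correlated more closely, as between DG and CA3 of Synpo-/- controls (-0.015 to 0.535). The check does not show whether some of these pieces came from 1 culture. For the Synpo-/- coIP it cannot decide, since 2 libraries per fraction give only 1 correlation (0.0505). Its labels also carry a biological replicate number that pairs the fractions differently.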

Additional observations from a re-analysis of the deposited data

Results flagged for a closer look

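Of 90 sets of levels, each 1 gene in 1 group of 4 to 10 libraries, 5 held a library whose gap to the next passed Dixon's critical value, and chance gives about 1 in 20. The library labelled DG Synpo+/+ ECL replicate 5 stood apart for 2 genes. It held 96.15 CPM of Slc17a7, where the other 6 held 22.1 to 40.6 CPM, and 8.061 CPM of Slc17a8, where the others held 1.62 to 3.71 CPM. In Synpo-/- CA3 after ECL, replicate 1 held 6.559 CPM of Slc17a6, against 2.40 to 3.27 CPM in the other 5, and replicate 6 held 120.4 CPM of Slc38a2, against 163 to 179 CPM. In the coIP of Synpo+/+ control cultures, replicate 1 held 391.4 CPM of Slc38a1, against 297 to 319 CPM in the other 4.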

How the results depend on the processing

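Among genes called in the reported fit or under an alternative, 5 values changed sign. In Synpo+/+ control coIP, removing the length trend turned Slc1a1 to -0.257 and Slc38a1 to -0.116, and removing length and GC trends turned Slc38a1 to -0.0195. In Synpo+/+ ECL coIP, Slc38a1 turned to -0.128 and -0.0255. The cause was not tested.

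Counts of called members changed in some settings, and so did the counts over all genes, which follow in the same order. In Synpo+/+ CA3 after the lesion the 1 call became 0 with the length trend removed and 0 with length and GC trends removed. It also became 0 with all 8 regional groups in 1 fit. These settings called 96 of 22340, 77 of 22340 and 7 of 30550 genes. In Synpo+/+ DG the 2 calls became 1 with RLE size factors and 0 without a filter on low counts. They became 1 with the length trend removed and 5 in the joint fit. Genes called there were 2636 of 23720, 3037 of 51290, 2326 of 23720 and 4248 of 30550. In Synpo-/- DG the 2 calls became 1 with RLE size factors, 1 without the filter and 1 with the replicate block. Called there were 1914 of 23310, 1628 of 51345 and 698 of 22531 genes. Requiring a mean normalized count above 300 left 1 of 2 calls between regions in Synpo+/+ controls and 2 of 4 in Synpo-/- ECL tissue, since Slc17a8 and, in the latter, Slc17a6 lie under it. Between Synpo+/+ ECL regions 1 call became 2 with DESeq2, 2 without the filter, 4 with the replicate block and 3 in the joint fit. Over all genes 1500 of 24029, 1190 of 50541, 5018 of 20491 and 2036 of 30550 were called. Between genotypes in CA3 controls 0 became 1 with DESeq2 (Slc17a7), 1 without the filter (Slc17a7) and 1 with the replicate block (Glul). All genes called were 700 of 24203, 1022 of 49947 and 2461 of 20456. In coIP against input, 4 became 2 in Synpo+/+ control with the length trend removed (9005 of 18222 genes called). In Synpo+/+ ECL 4 became 2 with length and GC trends removed (8915 of 18229 genes). In Synpo-/- 2 became 1 with either (5871 and 5790 of 20892 genes). For the region by lesion interaction in Synpo-/- tissue 0 became 1 with DESeq2 and 2 with the length trend removed. Those settings called 661 and 425 of 25435 genes. The replicate block changed other member counts by at most 1.5 times. In regional comparisons it rests on a number that was not taken to pair the samples. In the Synpo-/- coIP the labels carry a replicate number and a biological replicate number, which pair the fractions differently. A block by the former added Slc1a2 (adjusted p = 0.0161). A block by the latter, chosen after seeing the data, did not (adjusted p = 0.0867).

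Leaving out each library in turn gave 0 to 1 called members after the lesion in Synpo+/+ CA3, 0 to 4 in Synpo+/+ DG, 1 to 2 in Synpo-/- DG and 1 in every input fit. Between regions it gave 2 to 3 in Synpo+/+ controls, 0 to 4 in Synpo+/+ ECL, 4 in Synpo-/- controls and 3 to 4 in Synpo-/- ECL tissue. It gave 4 to 5 in both Synpo+/+ coIP comparisons, 1 to 3 in Synpo-/- coIP and 0 to 1 for the region by lesion interaction in Synpo-/- tissue. Some settings moved the median of all genes by over 0.1 on the log2 scale, such as the length trend (-0.14 for the lesion in Synpo+/+ CA3 and DG) and the unfiltered fit (-0.24 and -0.26). Slc17a8 (mean normalized counts of 42.7 to 189 per comparison) and, within CA3, Slc17a6 (39.2 to 74.4) had the fewest reads.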
